A study of Mus musculus with 3 samples.

Results

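Costimulatory receptors and ligands are cell-surface proteins that decide, together with antigen, whether a T cell is activated or held back. The 9 genes described here are Cd28, Ctla4, Cd80, Cd86, Cd274, Pdcd1lg2, Cd40, Icosl and Cd83, out of 55536 annotated genes in the gene tables, of which 22028 are protein coding. They were chosen by symbol, because Cd28, a receptor known from T cells, was detected in macrophages. The level of Cd28 therefore selected the group and is given as a description, and no test was run on any level.

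The libraries hold RNA of the chromatin fraction of bone-marrow-derived macrophages, primary phagocytes grown out of marrow from C57BL/6J mice, sequenced as total RNA after removal of ribosomal RNA. All cells had received 100 ng/ml Lipid A, the TLR4-binding part of lipopolysaccharide, for 10 min. There was a single group of 3 libraries, labelled biological replicates 1, 2 and 3, with starting RNA of 1 µg, 250 ng and 500 ng. A single donor entry covers all 3 in the labels, which do not say whether they came from separate animals, and the spread between libraries may be partly technical. All libraries were stimulated, so whether Lipid A changed a level cannot be read from them.

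In the textbook scheme, antigen-presenting cells carry CD80 and CD86, T cells carry CD28, which adds an activating signal when it binds them, and CTLA-4, which competes for the same ligands and restrains the cell. PD-L1 (the product of Cd274) and PD-L2 (Pdcd1lg2) bind the inhibitory T cell receptor PD-1, and ICOSL (Icosl) binds ICOS, a receptor related to CD28. CD40 works in the other direction: it receives the CD40 ligand of helper T cells and raises ligand expression on the presenting cell, and CD83 is a maturation marker that keeps CD86 and MHC class II at the surface. Chromatin-fraction RNA is rich in transcripts that are still being made or spliced, so intron-containing RNA is part of what these libraries measure.

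Short sequences show the RNA features to which the transcript results refer: 3 are intronic stretches that annotated transcripts keep, and 1 lies between divergent start sites. The first is the whole intron 1 of Cd83 in capitals, with flanking coding bases in lower case, at chr13:43785231-43785365 of mm10, plus strand. It is kept by the transcript Cd83-202, and its last 3 capitals are a TAG stop codon in the frame of the spliced transcript Cd83-201.
Cd83 intron 1: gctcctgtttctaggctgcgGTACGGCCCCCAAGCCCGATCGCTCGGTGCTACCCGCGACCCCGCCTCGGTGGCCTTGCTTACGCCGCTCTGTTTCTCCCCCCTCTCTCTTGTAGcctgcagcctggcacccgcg
The second runs from the end of Cd28 exon 2, in lower case, into the kept part of intron 2, in capitals, at chr1:60763306-60763403 of mm10, plus strand. It belongs to Cd28-203 and is shown as far as the TAA stop codon that follows in the frame of Cd28-201.
Cd28 exon 2 to intron 2: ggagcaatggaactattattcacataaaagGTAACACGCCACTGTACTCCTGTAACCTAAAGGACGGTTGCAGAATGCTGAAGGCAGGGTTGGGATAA
The third joins the coding end of Cd86 exon 1, in lower case, to an exon that lies inside intron 1, in capitals, on the minus strand of chromosome 16. It belongs to Cd86-203 and is shown as far as the TGA stop codon in the frame of Cd86-201.
Cd86 exon 1 to intronic exon: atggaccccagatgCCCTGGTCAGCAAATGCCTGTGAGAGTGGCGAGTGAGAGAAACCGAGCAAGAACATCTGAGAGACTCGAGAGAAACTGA
The fourth is the stretch between the annotated starts of Plgrkt and Cd274, in capitals, at chr19:29367381-29367464, plus strand, from RefSeq's promoter table for GRCm38.p6.
Cd274 and Plgrkt starts: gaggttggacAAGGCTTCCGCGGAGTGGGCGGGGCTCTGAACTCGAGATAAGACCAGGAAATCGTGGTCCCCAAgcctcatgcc

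Annotated genes received 15698040, 16005774 and 14386703 estimated counts in replicates 1, 2 and 3. All 10 macrophage markers were detected, a gene counting as detected at a TPM (the length-normalized transcript abundance) of 1 or more in every library. The share of TPM on protein-coding genes was 31.7%, 25.3% and 22.2% in replicates 1, 2 and 3. A lower TPM in replicate 3 can therefore accompany an equal share of the protein-coding RNA. No library repeats another: between any 2 of them the chi-square of the counts per degree of freedom was 13.1 to 30.5.

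Of the 9 genes, 7 were detected, where the same rule called 24.4% of all annotated genes and 45.9% of protein-coding genes. Cd28, Cd274, Cd86, Cd83, Cd80, Cd40 and Icosl passed, and Ctla4 and Pdcd1lg2 did not. The lowest gene inside the threshold was Icosl, at 2.07 TPM in replicate 3, and the highest outside it was Pdcd1lg2, at 0.59 TPM in replicate 1. The median of log2(TPM + 1) over the 9 genes was 3.88, 3.48 and 3.28 in replicates 1, 2 and 3, against 0.88, 0.85 and 0.63 over all protein-coding genes. The genes were chosen with Cd28 in view, so nothing is read from this gap.

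Cd28 (ENSMUSG00000026012.2) lies on the plus strand of chromosome 1 in mm10, from 60716800 to 60773359. It had 49.3, 47.6 and 37.4 TPM in replicates 1, 2 and 3, from 2032, 2259 and 1695 estimated counts. Its mean of 44.7 ± 6.44 TPM (SD, n = 3) lay above 85.8% of detected protein-coding genes. Replicate 3 was lowest in TPM, and the second transcript table, which the authors derived directly from reads, gave 37.8, 40.6 and 36.9 TPM.

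Ctla4 (ENSMUSG00000026011.13), the inhibitory receptor for the same ligands, had 0 counts in all 3 libraries and in both kinds of table. A count of 0 allows up to 3 counts per library, which on the shortest annotated Ctla4 transcript, of 614 bases, is 0.518, 0.446 and 0.450 TPM in replicates 1, 2 and 3, for counting error only. Against those limits Cd28 was at least 95.2-, 107- and 83.1-fold higher. The difference of Cd28 minus Ctla4 was 5.51 ± 0.21 in log2(TPM + 1) (SD, n = 3). With Ctla4 at 0 this is the level of Cd28 alone, and its direction was fixed.

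The pair are neighbours on chromosome 1. Ctla4 starts 113641 bp beyond the end of Cd28 on the same strand, and Icos, the third receptor of the cluster, starts 62095 bp beyond Ctla4. Icos had 9, 13 and 4 counts, a mean of 0.177 ± 0.0851 TPM (SD, n = 3), and was not detected. On the other side of Cd28, Raph1 had 122, 84.8 and 72.0 TPM. Raph1 and Cd28 were thus high at this locus, and Ctla4 and Icos were at or close to 0.

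**Figure D1:**
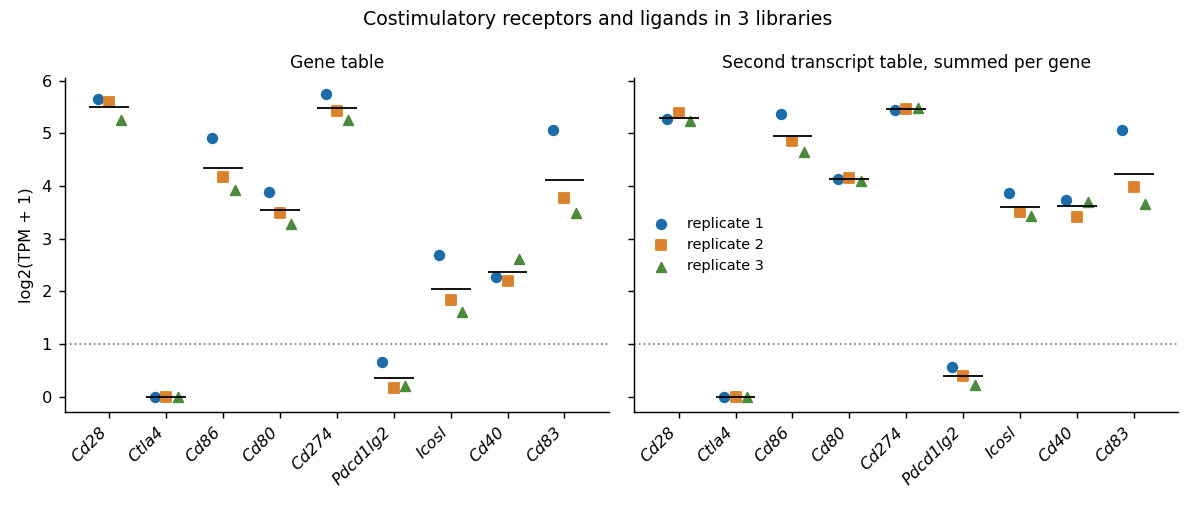
Level of each of the 9 genes as log2(TPM + 1), in the gene table (left panel) and in the second transcript table summed per gene (right panel). Points are the 3 libraries, black lines their mean and the dotted line the detection threshold of 1 TPM; Cd28 and Cd274 lead, Ctla4 is at 0, and Icosl and Cd40 sit higher in the right panel.

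Cd86 and Cd80, the ligands that CD28 and CTLA-4 share, were both present. Cd86 had 29.3, 17.0 and 14.2 TPM in replicates 1, 2 and 3 (498, 345 and 266 counts), with replicate 1 apart from the other 2. Cd80 had 13.8, 10.2 and 8.70 TPM (369, 371 and 302 counts). Cd86 was higher in each library, by 0.79 ± 0.21 in log2(TPM + 1) (SD, n = 3) and by TPM ratios of 2.13, 1.67 and 1.63. Without length normalization the difference was 0.05 ± 0.32 in log2(CPM + 1), with Cd86 below Cd80 in replicates 2 and 3. The order of this pair thus rests on the transcript lengths by which TPM divides, and on which Cd86 forms are counted. The protein-coding Cd86-201 alone had 8.63, 4.54 and 3.71 TPM, below Cd80, whose forms are all protein coding, in each library. It had 7.61, 4.56 and 3.89 TPM in the second table, against 16.5, 16.8 and 16.1 TPM for Cd80.

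Of the PD-1 ligand genes, Cd274 was detected and Pdcd1lg2 was not. Cd274 had 53.1, 42.2 and 37.4 TPM in replicates 1, 2 and 3, a mean of 44.2 ± 8.02 TPM (SD, n = 3), and 42.7, 43.4 and 43.7 TPM when quantified directly from reads. Pdcd1lg2 had 0.59, 0.12 and 0.16 TPM from 12, 3 and 4 counts. Counts this low are imprecise, with exact 95% Poisson intervals of 0.619 to 8.77 counts in replicate 2 and 1.09 to 10.2 counts in replicate 3. The TPM ratio of Cd274 to Pdcd1lg2 was 90.0, 352 and 234, with 95% counting intervals of 51.4 to 174, 120 to 1710 and 91.2 to 859. The difference of Cd274 minus Pdcd1lg2 was 5.14 ± 0.12 in log2(TPM + 1) (SD, n = 3), positive in 3 of 3 libraries.

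These ligand genes also lie side by side, on chromosome 19, with Pdcd1lg2 starting 22824 bp beyond the end of Cd274 on the same strand. Ric1, the next gene, had 49.1, 39.7 and 35.1 TPM, so Pdcd1lg2 lay between a pair of detected neighbours. The antisense gene A930007I19Rik overlaps the Pdcd1lg2 locus and had 3.44, 3.43 and 1.86 TPM, and both genes were listed with a read-assignment error of 0. Plgrkt, which encodes a plasminogen receptor, is read the opposite way from a start 64 bases from that of Cd274, the stretch printed above. It had 229, 199 and 180 TPM. That stretch is 59.4% G or C and holds the GC box GGGCGG. Over both strands of RefSeq's windows of 300 bases, which matched 5 of the 9 genes, GGGCGG occurred for Cd274 and Icosl and in 35.7% of all windows. The TATA box TATAAA occurred for Cd80 and Ctla4 and in 13.6% of all windows.

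Cd274 was the only one of the 9 genes listed with a read-assignment error above 0. The antisense gene AC119228.1 overlaps it on the other strand, shares 511 exonic bases with it and had 51.0, 48.5 and 27.5 TPM. The authors' read-assignment error of the Cd274 count, as a standard deviation, was 6.55, 6.59 and 5.01 counts, and AC119228.1 was listed with the same values. The estimated counts of the pair sum to whole numbers, 4777, 5345 and 3825. The use of strand in counting was not stated in these sources, and reads of Cd274 and its antisense gene cannot be fully told apart.

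Icosl, the ligand of ICOS, had 5.46, 2.57 and 2.07 TPM (165, 94 and 76 counts), with replicate 1 highest. Cd40, the receptor for the helper T cell signal, had 3.83, 3.57 and 5.15 TPM (55, 57 and 82 counts), with replicate 3 highest. Both were higher in the second transcript table, where Icosl had 13.6, 10.4 and 9.73 TPM and Cd40 12.4, 9.68 and 12.0 TPM. The ratios of the mean in the second table to that in the gene table were 3.35 and 2.71, the highest of the 8 genes with counts. By library the ratios ran from 2.5 to 4.7 for Icosl and from 2.32 to 3.23 for Cd40. The levels of both genes are thus known only to about these factors. Cd83, the maturation marker, had 32.7, 12.7 and 10.2 TPM (914, 443 and 345 counts), and its mean of 18.5 ± 12.3 TPM (SD, n = 3) became 11.5 TPM without replicate 1.

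Ordered by mean TPM in the gene table, Cd28 and Cd274 came first. They did not differ beyond their spread, with a difference of 0.02 ± 0.14 in log2(TPM + 1) (SD, n = 3). In the second table Cd274 was above Cd28 in each library. Cd274 exceeded Cd86 by 1.15 ± 0.27 with no overlap of the libraries. Cd86 and Cd83 did not differ beyond their spread (0.23 ± 0.33), and Cd83 exceeded Cd80 by 0.57 ± 0.54 with overlapping ranges. In the second table Cd86 was above Cd83 in each library, at 40.5, 27.9 and 24.1 TPM against 32.5, 14.8 and 11.6 TPM. Cd80 had 16.5, 16.8 and 16.1 TPM there, below Cd83 in replicate 1 only, so the order of Cd83 and Cd80 was not settled. Cd80 exceeded Cd40 by 1.19 ± 0.49 without overlap, while Cd40 and Icosl did not differ beyond their spread (0.31 ± 0.71). Icosl exceeded Pdcd1lg2 by 1.70 ± 0.31 without overlap. Pdcd1lg2 was 0.35 ± 0.28 above Ctla4, but in replicates 2 and 3 it lay below the limit that 0 counts allow for Ctla4, so the order of these 2 was not resolved.

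The transcript tables divide each gene among its annotated transcripts, and for several of these genes much of the TPM was assigned to transcripts with intronic sequence. The tables have no class for unspliced RNA, so reads of nascent transcripts over such bases cannot be told apart from a finished transcript that keeps the intron. The shares below therefore say where reads fell among annotated forms. Over the 6523 genes with an annotated retained-intron transcript and enough signal, the median share of TPM in such transcripts was 46.7% ± 2.31 (SD, n = 3).

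Cd28 was divided almost evenly between a spliced and an intron-containing form. The protein-coding Cd28-201, of 4347 bases, had 25.6, 20.7 and 15.9 TPM in replicates 1, 2 and 3. Cd28-203, a retained-intron transcript of 1775 bases, had 23.7, 26.9 and 21.5 TPM, and Cd28-202 had 0. Cd28-203 thus held 48.0%, 56.5% and 57.5% of the gene's TPM, and 51.3% ± 2.87 in the second table (SD, n = 3). Because Cd28-203 is shorter, its share of estimated counts, computed after seeing the data, was 30.8% ± 4.23 (SD, n = 3). Among all genes with such a transcript, 37.3% had a share at or above that of Cd28.

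What sets Cd28-203 apart is 1291 bases of intron 2, which are 66.5% of that intron and lie in no other Cd28 transcript. Read in the frame of Cd28-201, the TAA that closes the printed stretch begins at base 66 of the intronic part, after 159 codons, where the spliced form has 218 codons. The 3863 bases found only in Cd28-201 allowed the forms to be separated with an assignment error of 5.31 to 7.60 counts.

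Cd83 was assigned almost wholly to its intron-containing form. Cd83-202 had 30.6, 11.5 and 9.15 TPM in replicates 1, 2 and 3, and the spliced Cd83-201 had 2.03, 1.18 and 1.07 TPM. The retained-intron share was 93.8%, 90.7% and 89.5%, and 84.3% ± 4.86 in the second table (SD, n = 3). Among all genes with such a transcript, 1.5% had a share at or above that of Cd83 in the first table and 6.84% in the second.

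This share rests on few bases. Cd83-202 differs from Cd83-201 by the 95 bases of intron 1 printed above, 67.4% of them G or C, and Cd83-201 has 414 bases of its own, so reads elsewhere fit both forms. The TAG that ends the intron follows 43 codons, where the spliced form has 196.

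Cd86 also had a leading form with intronic sequence, although the annotation calls it a processed transcript and not a retained intron. Cd86-203 had 18.1, 11.6 and 7.77 TPM in replicates 1, 2 and 3, and the protein-coding Cd86-201 had 8.63, 4.54 and 3.71 TPM. Cd86-203 held 61.5% ± 6.56 of the gene's TPM in the first table and 67.9% ± 3.19 in the second (SD, n = 3 each). It joins exon 1 to an exon of 841 bases inside intron 1, an intron of 36928 bases. The TGA that ends the printed stretch comes after 30 codons in the frame of Cd86-201, which has 309. In estimated counts, which longer transcripts collect more of, Cd86-203 had 198, 152 and 99.9 and Cd86-201 had 286, 187 and 147 in the first table. In the second table Cd86-203 also led in counts, with 474, 447 and 313 against 416, 306 and 224, so which form had more counts differs between the tables.

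Icosl was the member on which the transcript tables differed most. In the first table its retained-intron transcripts held 79.3%, 65.9% and 74.4% of TPM, and in the second 30.4% ± 4.96 (SD, n = 3). The difference lay in Icosl-203, a protein-coding form with 744 bases of its own, which had 0 counts in every library of the first table and 300.0, 333 and 243 counts in the second. Icosl-202 keeps the whole 458-base intron 2. The retained-intron transcript Cd40-205 held 43.9%, 32.3% and 48.7% of Cd40, from 8.07, 6.31 and 13.8 counts, too few for a firm share.

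Cd80 had no annotated retained-intron transcript. Its protein-coding forms Cd80-201 and Cd80-202 held 52.8% ± 4.22 and 39.4% ± 4.97 of TPM in the first table, against 40.1% ± 11.4 and 48.5% ± 19.8 in the second (SD, n = 3 each), so which of them led was not settled. Cd274 has a single annotated transcript.

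**Figure D2:**
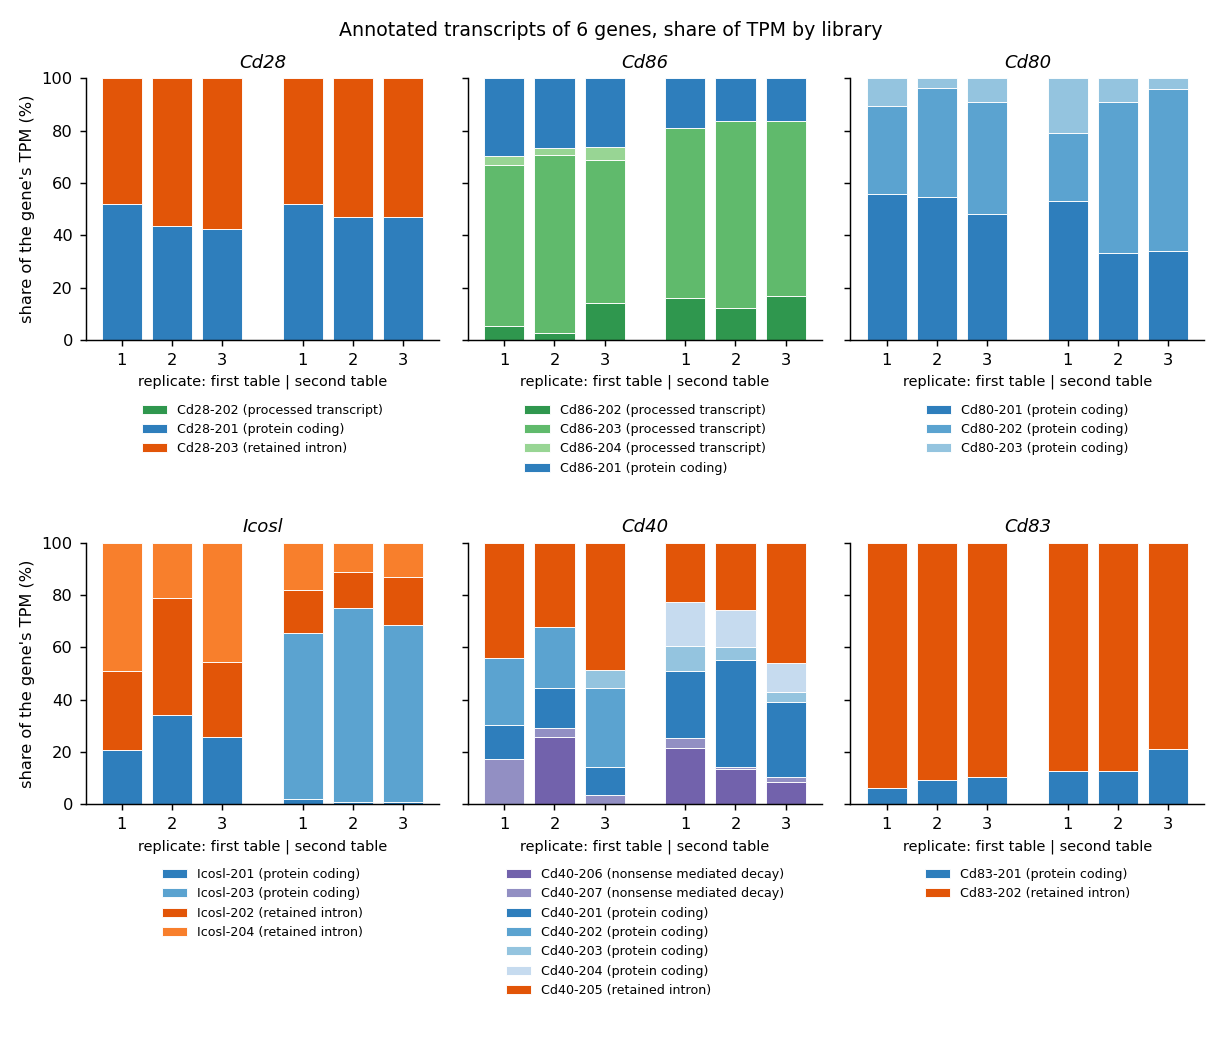
Share of each gene's TPM (percent) held by its annotated transcripts, with 1 bar per library, 3 from the first transcript table on the left of each panel and 3 from the second on the right. Retained-intron forms (orange) hold about as much of Cd28 as the protein-coding form (blue) and most of Cd83, a processed transcript (green) leads Cd86, and the Icosl bars differ between tables.

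Since Cd28 is best known from T cells, its level was set beside 16 T cell markers. Of these, 2 were detected in the gene table, where the same rule called 45.9% of protein-coding genes. They were Cd5 at 1.99, 3.15 and 1.85 TPM and Lat at 1.94, 1.65 and 1.83 TPM. Another 7, among them the T cell receptor genes Trbc1 and Trbc2, the CD3 subunits Cd3e and Cd3g, Cd2 and the kinase Lck, had 0 counts in every library. The 16 markers together had 102, 128 and 111 counts in replicates 1, 2 and 3, and Cd28 alone had 19.9, 17.6 and 15.3 times as many. The median marker had 0, 0 and 0.025 TPM in replicates 1, 2 and 3. Cd28 minus the median marker, 5.49 ± 0.23 in log2(TPM + 1) (SD, n = 3), is therefore nearly the level of Cd28 itself. That level selected the group, so nothing is read from the direction.

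The second transcript table gave a less uniform picture. There 5 of the 16 markers were detected, where the same rule called 54.9% of protein-coding genes. Among them were the CD3 subunit Cd3d at 3.67, 13.2 and 17.2 TPM and Thy1 at 8.13, 12.1 and 11.3 TPM. The gene table had at most 2 counts for either. Trbc1, Trbc2 and Cd2 stayed at 0. The difference of Cd28 from the median marker was 4.80 ± 0.16 in that table (SD, n = 3). In bulk RNA, fewer cells of a type and less RNA per cell cannot be told apart.

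**Figure D3:**
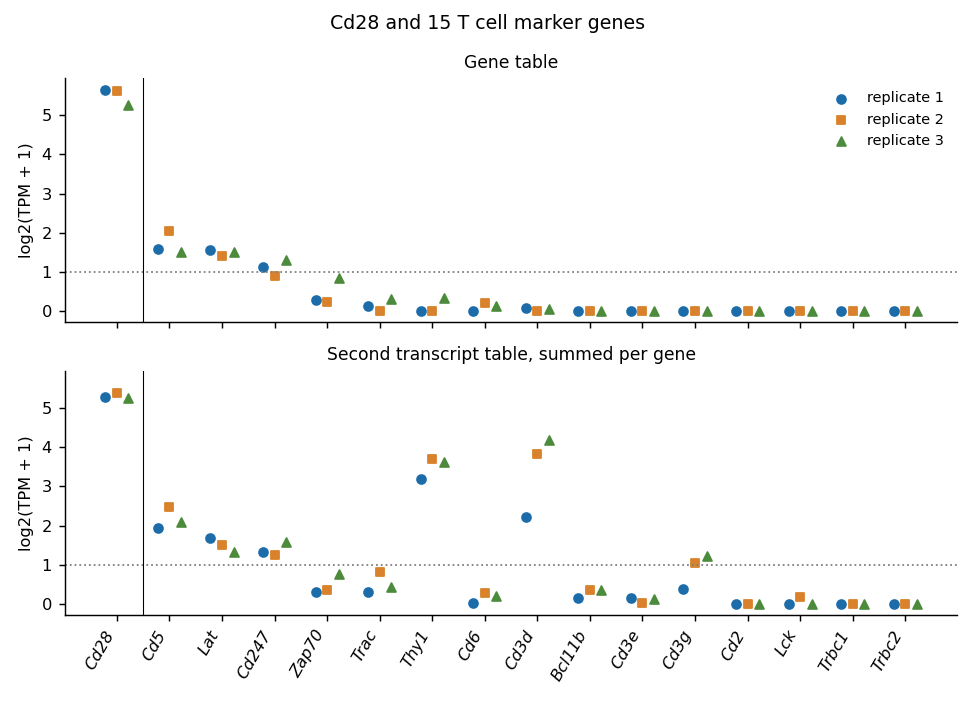
Level of Cd28 (left of the vertical line) and of 15 of the 16 T cell markers as log2(TPM + 1) in 3 libraries, in the gene table (top) and the second transcript table (bottom). The dotted line is 1 TPM; Cd28 is above every plotted marker in every library of both tables, and Thy1 and Cd3d are high in the bottom panel only.

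Markers of other cell types were set beside the 45.9% of protein-coding genes that the same rule called in the gene table. In the gene table, of 8 dendritic cell markers, 2 were detected, Batf3 at 6.37, 2.83 and 2.97 TPM and Zbtb46 at 1.17, 1.85 and 1.27 TPM, while Flt3, Ccr7, Fscn1 and Xcr1 were under 0.17 TPM in each library. Of 8 B cell markers, Cd22 was detected at 2.28, 2.02 and 1.10 TPM, and Pax5 and Blk had 0 counts. The 5 NK cell markers had 0 counts, and none of 6 neutrophil or 5 fibroblast markers was detected. The second table added Siglech, at 2.57, 2.49 and 1.97 TPM, for 3 of 8 dendritic cell markers and Ebf1, at 1.79, 2.12 and 2.44 TPM, for 2 of 8 B cell markers. The share of protein-coding genes called there was 54.9%.

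The spread between libraries was read from CPM (counts scaled to library size) with TMM scaling, which removes depth and differences carried by a few abundant RNAs. In the gene table Cd28, Cd80 and Cd274 had a highest library 1.06, 1.09 and 1.10 times the lowest, where the median detected protein-coding gene had 1.26. In the second table the folds were 1.09, 1.36 and 1.09 for Cd28, Cd80 and Cd274, so the small spread of Cd80 holds in the gene table alone. In the gene table only 5.11% of 10120 such genes had a smaller spread than Cd28. The genes compared were not matched for count, and counting error is larger in genes with fewer counts. Cd28 had 130.5, 132 and 125 scaled CPM in replicates 1, 2 and 3.

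Cd86, Icosl and Cd83 shared a pattern in the gene table, in which replicate 1 was high and the other libraries were alike. Cd83 had 58.7, 26.0 and 25.3 scaled CPM, Cd86 32.0, 20.2 and 19.5, and Icosl 10.6, 5.51 and 5.58. The highest library was 2.32, 1.64 and 1.92 times the lowest for Cd83, Cd86 and Icosl, and without replicate 1 the 3 folds were 1.03, 1.04 and 1.01. The spread of Cd83 exceeded that of 97.8% of detected protein-coding genes, again in the gene table. In the second table the folds were 2.83, 1.77 and 1.51 for Cd83, Cd86 and Icosl, and replicate 1 was highest in TPM for each. Cd83 had 14.8 and 11.6 TPM there in replicates 2 and 3, and folds without replicate 1 were not computed. Replicate 1 is the library with 1 µg of starting RNA, and amount and replicate cannot be told apart. The macrophage markers also had most counts there, 40606 summed against 30796 and 26062 in replicates 2 and 3, and fibroblast markers fewest, 1 against 56 and 64. The part of either in the result was not tested.

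Of the 7 detected genes 5 were highest in replicate 1 on this scale, where 42.9% of detected protein-coding genes were. Cd40 was the exception among the variable genes, with 3.53, 3.34 and 6.02 scaled CPM. Its counts of 57 and 82 in replicates 2 and 3 have exact 95% Poisson intervals of 43.2 to 73.9 and 65.2 to 102. These intervals are on counts before scaling to library size, so their overlap does not carry over to the scaled CPM. In the second table the spread of Cd40 was 1.05-fold.

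**Figure D4:**
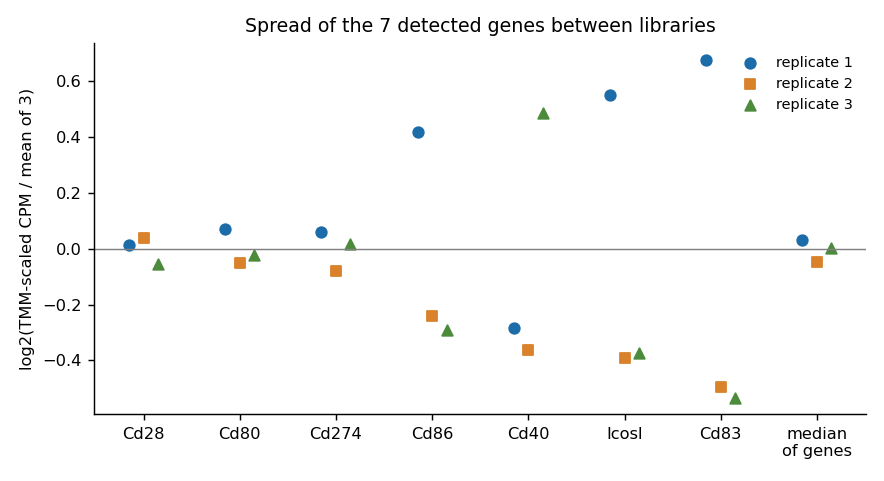
Log2 ratio of TMM-scaled CPM in each library to the mean of the 3, for the 7 detected genes and, at the right, the median over 10120 detected protein-coding genes. Cd28, Cd80 and Cd274 stay close to 0, replicate 1 is above the others for Cd86, Icosl and Cd83, and replicate 3 for Cd40.

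Genes that work with these receptors and ligands were examined as lists, again by how many were detected, beside the 45.9% of all protein-coding genes. Of 7 other members of the CD28 and B7 families, 1 was detected. Vsir, which encodes the inhibitory ligand VISTA, had 49.3, 39.3 and 30.5 TPM. Icos, given above, and Cd276, with 0.06, 0.06 and 0.02 TPM, were next, and Pdcd1 (PD-1), Vtcn1 and Ildr2 had 0 counts in the gene table. Ildr2 had 0.441, 0.667 and 0.566 TPM in the second table. Thus Cd28 was the single detected gene among the 5 receptors Cd28, Ctla4, Icos, Pdcd1 and Btla.

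Among 13 costimulators of the TNF families, to which CD40 belongs, 4 were detected. Tnfrsf14 (HVEM), a receptor for LIGHT and BTLA, had 88.0, 43.8 and 37.5 TPM, Cd27 9.32, 6.66 and 4.94 TPM and Tnfrsf4 (OX40) 4.84, 4.25 and 1.32 TPM. Cd40lg, which encodes the ligand of CD40, had 1 count in replicate 2 and 0 in the others of the gene table, and Tnfrsf9 and Cd70 had 0. Tnfrsf9 had 0.465, 0.688 and 0.597 TPM in the second table.

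The signalling genes downstream of CD40 were all detected, 8 of 8, although Cd40 itself was low. Birc3, which encodes the ubiquitin ligase cIAP2, had 65.8, 44.3 and 33.5 TPM, Map3k14 (the kinase NIK) 29.8, 22.8 and 19.8 TPM and Birc2 (cIAP1) 23.9, 17.4 and 15.7 TPM. The TRAF adaptors Traf1, Traf2, Traf3, Traf5 and Traf6 lay between 4.85 and 16.0 TPM.

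Of 8 genes that carry the CD28 signal in T cells, 4 were detected. They were Vav1, a guanine nucleotide exchange factor, at 98.1, 65.8 and 77.9 TPM, the PI3-kinase subunits Pik3r1, at 79.1, 50.6 and 49.0 TPM, and Pik3cd, and the adaptor Grb2, at 93.2, 34.3 and 31.6 TPM. Grap2 and Prkcq were below 1 TPM in each library of the gene table, and Lck had 0 counts there. Of the 8, 5 were detected in the second table, with Prkcq at 2.34, 2.33 and 2.25 TPM.

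All 5 regulators of these proteins were detected. March8 and March1, ubiquitin ligases that remove CD86 and MHC class II from the surface, had 33.2, 30.4 and 27.4 TPM and 20.7, 17.2 and 12.3 TPM in replicates 1, 2 and 3. Lrba, which protects CTLA-4 from degradation, had 23.6, 20.8 and 22.3 TPM, although Ctla4 had no counts. Cmtm6 and Cmtm4, which stabilise PD-L1, had means of 7.66 ± 0.730 and 4.17 ± 0.631 TPM (SD, n = 3 each).

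**Figure D5:**
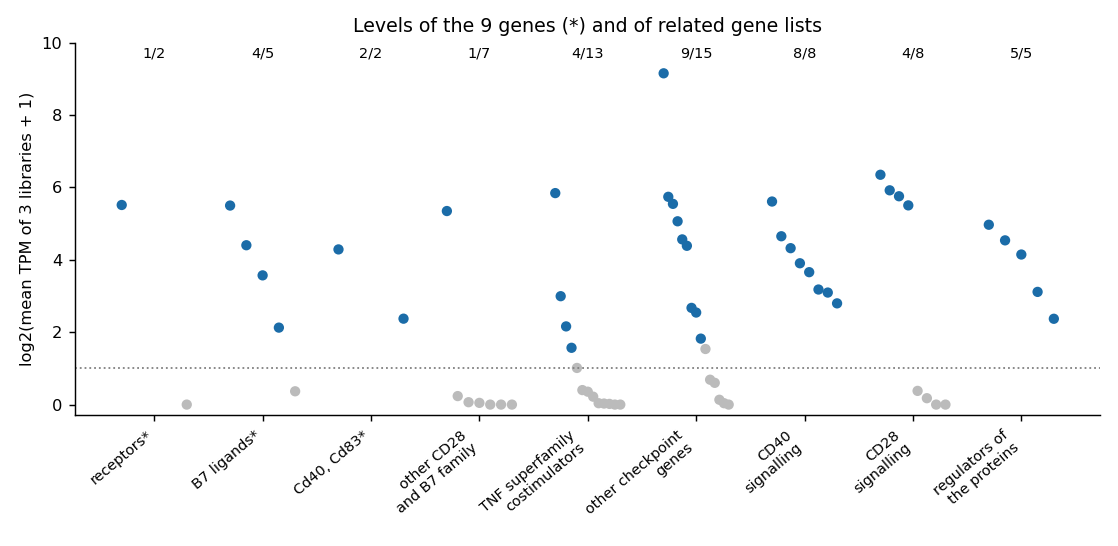
Mean level over 3 libraries as log2(mean TPM + 1) for each gene of the 3 role groups of the 9 genes (marked with an asterisk) and of 6 related lists. Blue genes were detected at 1 TPM or more in every library and grey ones were not, with the number detected of the number in the list printed above; the 8 CD40 signalling genes and the 5 regulators were all detected.

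The protein-coding genes whose log2(TPM + 1) was closest to that of Cd28 over the 3 libraries, by Euclidean distance, were Dop1a, Gfm2, Khdrbs1, Mapk6 and Fam49b. The closest, Dop1a, had 49.0, 47.0 and 37.0 TPM, a distance of 0.0243. Within a distance of 0.25 there were 123 of 10119 genes.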

How the data were processed

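Chromatin-fraction total RNA of 3 macrophage libraries was analysed from the authors' deposited tables. Per the file headers, the gene table and first transcript table give expected (estimated) counts, TPM and a read-assignment error of each count, and the second transcript table gives estimated counts and TPM. Per the deposited readme files, the first pair came from transcriptome alignments and the second directly from reads, with mm10 and GENCODE M21 as build and annotation; the programs were not given in these sources. The authors' TPM is relative to all listed RNAs.

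Symbols and identifiers came from the second transcript table. Its values were summed per gene. Rows naming no annotated gene, with 1.16%, 0.459% and 0.351% of counts in replicates 1, 2 and 3, were left out. Counts were rounded to whole numbers for TMM scaling with edgeR 4.0.16 in R 4.3.3, over genes with a mean count of 10 or more, and DESeq2 1.42.0 size factors were the alternative. Both scalings were tested on simulated data. Differences used log2(TPM + 1), a scale that understates the change of low genes.

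With 1 group no contrast exists, and an exact two-sided sign-flip test of 3 libraries cannot go below 0.25, so no p-value is given. Limits and intervals cover counting error only, because PCR copies of a molecule were not told apart. The members, lists and alternatives were chosen with earlier results of these data known. All 9 members are named, with the nearest protein-coding genes of the 2 receptor and the 2 PD-1 ligand loci, the 3 highest genes of each related list, small sets at 0, and the 5 genes closest to Cd28. Other genes, such as Cd3d, Thy1, Batf3 and the TRAF genes, were named after their values were seen. A few list genes are not reported here by name.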

Additional observations from a re-analysis of the deposited data

How the results depend on the processing

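The count of detected genes was 7 of 9 in the second table, also with TPM rescaled over protein-coding genes, and also at 0.5 TPM. It was 7 with 10 or more counts and without any 1 library, and 5 at 5 TPM. Of all protein-coding genes, 54.9% were detected in the second table, against 45.9% in the gene table. Shares over all genes under the other rules were not computed. The means of the 4 differences kept their sign under each alternative run. For Cd28 minus Ctla4 the sign was fixed, because Ctla4 had 0 counts. Cd28 was chosen because it was detected, so nothing is read from the sign of Cd28 minus T cell markers. Sizes on a log scale moved with the scale. The median level was 3.55 in the gene table, 3.93 in the second table, 5.39 with TPM rescaled over protein-coding genes and 4.46 as log2(CPM + 1). Cd28 minus Ctla4 was 7.42 after rescaling, 8.80 with a pseudocount of 0.1 and 7.02 in CPM, and Cd274 minus Pdcd1lg2 was 6.45, 7.01 and 6.84 under the same 3. Cd86 minus Cd80 was 0.048 in CPM, which omits length, and was below 0 in replicates 2 and 3. Cd28 minus T cell markers was 4.80 in the second table, 7.37 after rescaling, 8.69 with a pseudocount of 0.1, 6.99 in CPM and 5.05 with the 7 markers that reached 0.1 TPM in some library.

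Leaving out each library gave 3.38 to 3.68 for the median, 5.43 to 5.63 for Cd28 minus Ctla4, 0.67 to 0.86 for Cd86 minus Cd80, 5.07 to 5.18 for Cd274 minus Pdcd1lg2, 5.41 to 5.63 for Cd28 minus T cell markers and 7 to 7 detected genes. Without replicate 1 the mean of Pdcd1lg2 was 0.14 TPM, against 0.29 TPM in all 3 libraries. DESeq2 size factors left the spread of each of the 8 genes with counts within 0.02 in log2 of its TMM value. With total counts and no scaling, the highest library of Cd28 was 1.2 times the lowest, against 1.06 with TMM. That of Cd274 was 1.08 against 1.10, so the small spread of Cd28 depends in part on the scaling. No paired analysis was possible because there is a single group.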

Other observations

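Other checkpoint receptors and ligands, outside the families described above, were detected in 9 of 15 cases in the gene table and 12 of 15 in the second table. The same rule called 45.9% and 54.9% of protein-coding genes in the gene table and the second table. Sirpa, the macrophage receptor for the signal carried by CD47, had 578, 584 and 545 TPM in replicates 1, 2 and 3, more than 10 times any of the 9 costimulatory genes in each library. Its ligand Cd47 had 50.1, 23.9 and 23.4 TPM. Cd48, a ligand of CD244, had 75.8, 48.8 and 32.9 TPM, and its receptor Cd244a 2.65, 2.88 and 2.08 TPM, so both sides of that pair were detected. Cd200r1, an inhibitory receptor of myeloid cells, had 47.0, 47.7 and 42.5 TPM, while its ligand Cd200 was below 1 TPM in each library of the gene table and at 0.705, 1.24 and 1.31 TPM in the second table. Pvr, a ligand of TIGIT and CD226, had 23.3, 19.2 and 17.3 TPM, Tigit had 1 count in replicate 2 and 0 in the others, and Cd96 had 0 counts. In the second table Tigit had 3.69, 4.71 and 4.31 TPM and Lag3 4.69, 5.65 and 5.84 TPM, against at most 0.71 TPM for either in the gene table.

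The neighbours of the remaining loci showed no common level. Adprh and Timmdc1, on either side of Cd80, had means of 2.85 ± 0.858 and 4.40 ± 0.765 TPM (SD, n = 3 each). Casr and Ildr1, on either side of Cd86, had 0 counts and 1 count over the 3 libraries. Ncoa5 beside Cd40 had 27.5 ± 5.10 TPM. On the other side of Cd40, 1700025C18Rik had 0 counts in the gene table and 1.03, 1.91 and 2.22 TPM in the second table. Dnmt3l and D10Jhu81e, beside Icosl, had 1 count in all and 6.96 ± 2.03 TPM. Rnf182 and Jarid2, the nearest on either side of Cd83 at 114 and 926 kb, had 2 counts in all and 15.2 ± 2.25 TPM (SD, n = 3 each).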
